A study of Mus musculus with 10 samples.

Results

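The mitochondrial ribosomal protein genes were taken as all genes whose symbol begins with Mrpl or Mrps. Each gene was represented by the brightest of its Affymetrix probe sets that carried that symbol alone. On these arrays 74 such genes were measured, of 12393 genes with a probe set of 1 symbol. Of them 47 are named Mrpl and 27 Mrps. By their place in the known structure of the ribosome 49 belong to the large subunit, because Mrps18a and Mrps30 sit there despite their names, and 24 to the small subunit. Mrps36 belongs to neither and is now known as a component of the 2-oxoglutarate dehydrogenase complex.

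Ventricular RNA was compared between 2 lines of transgenic mice, which the labels call alpha-TM175 (here TM175) and alpha-TM180 (here TM180), and nontransgenic controls (NTG). From knowledge of these lines, each carries an alpha-tropomyosin transgene with a single altered amino acid, driven in cardiac myocytes by the alpha-myosin heavy chain promoter, and both model hypertrophic cardiomyopathy, mild in TM175 and severe in TM180. The labels used here name no treatment and state no age, sex or background strain. TM175 had 3 arrays, TM180 had 4 and NTG had 3. In each genotype 1 array carried RNA combined from 20 hearts (TM175 array 3, TM180 array 4 and NTG array 3), and every other array carried the extract of 1 heart, so that 3 arrays were pools and 7 were individual hearts. Whether a pool also held the hearts measured alone is not stated.

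Mitochondria translate their own small set of messages, all of them for subunits of the respiratory chain and ATP synthase, on a ribosome of their own. Its RNA comes from the mitochondrial genome, whereas every protein of it is encoded in the nucleus, made in the cytosol and imported, so that both genomes have to supply parts of one machine. Some of these proteins have bacterial homologues and others were added in the mitochondrial lineage. Inherited defects of several of them cause cardiomyopathy in people, since heart muscle depends on oxidative phosphorylation.

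The arrays were alike in their middle and differed at their bright end. Median intensity ran from 66.6 to 70.9, and the correlation of log2 intensity between pairs of arrays was 0.964 to 0.995 (over probe sets, which do not stand for replicates). The 95th percentile of log2 intensity was 9.25 in TM175 array 1, 9.39 in TM175 array 2 and 9.40 in NTG array 2, and 9.50 to 9.59 in the other 7 arrays. TM175 array 1 also stood apart in Xist, the noncoding RNA that coats one X chromosome in female cells, which read 988 there, 99.5 to 136 in the other individual hearts, and 414, 394 and 149 in the pools of TM175, TM180 and NTG. All 12 cardiomyocyte markers looked for were measured, 9 of them at a settled scale, and of those 9 the dimmest, Ryr2, read at least 1160 in every array. In bulk tissue fewer cells of a type and less RNA per cell cannot be told apart. The number of arrays limits the precision of every value, and p-values measure only the spread between these samples.

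The promoters of 3 genes are shown first because these genes read below every control array in both lines, and because each holds a different letter string known from promoters of mitochondrial genes. The sequences, from RefSeq on build GRCm38.p6, run 5′ to 3′ on the gene's strand from 250 bases before to 50 bases after the start, and capitals mark the matched letters. Mrpl27 lies at chr11:94653541-94653840 (plus strand) and holds the core bound by ETS factors such as GABP. Mrpl42 lies at chr10:95501900-95502199 (minus strand) and holds the core bound by YY1. Mrpl9 lies at chr3:94443086-94443385 (plus strand) and holds the palindrome-like string bound by NRF1, which there also matches on the other strand, shifted by 1 base.
Mrpl27: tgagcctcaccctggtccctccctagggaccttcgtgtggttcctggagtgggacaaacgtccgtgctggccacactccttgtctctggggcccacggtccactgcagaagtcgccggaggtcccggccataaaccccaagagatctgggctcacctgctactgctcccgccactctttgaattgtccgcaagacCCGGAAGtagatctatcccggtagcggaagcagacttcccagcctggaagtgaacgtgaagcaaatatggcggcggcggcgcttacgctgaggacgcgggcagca
Mrpl42: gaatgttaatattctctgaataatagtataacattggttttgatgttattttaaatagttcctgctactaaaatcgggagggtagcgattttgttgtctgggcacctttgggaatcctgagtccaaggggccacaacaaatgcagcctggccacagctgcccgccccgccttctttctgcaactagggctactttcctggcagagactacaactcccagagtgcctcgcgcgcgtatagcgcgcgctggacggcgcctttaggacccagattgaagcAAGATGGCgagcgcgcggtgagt
Mrpl9: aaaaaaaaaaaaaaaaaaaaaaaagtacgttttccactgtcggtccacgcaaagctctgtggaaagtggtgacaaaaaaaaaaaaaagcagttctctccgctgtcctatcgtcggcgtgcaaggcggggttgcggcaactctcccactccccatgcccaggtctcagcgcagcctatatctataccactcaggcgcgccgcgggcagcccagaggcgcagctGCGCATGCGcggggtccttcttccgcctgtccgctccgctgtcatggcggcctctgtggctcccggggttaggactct

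A promoter was found for 65 of the 74 genes, in 71 sequences, some genes having several, and 9 genes had none in the table. The ETS core CCGGAAG, searched on both strands as were all strings, stood in 24 of the 71 member promoters (33.8%) and in 8.86% of all 32851 promoters of the same length. The YY1 core AAGATGGC stood in 11 (15.5%, against 2.75% of all), and the NRF1 string GCGCATGCG in 7 (9.86%, against 1.75%). At least 1 of these 3 stood in 36 (50.7%, against 12.5%). The TATA box TATAAA was found in 5 (7.04%, against 13.6%), and the E-box CACGTG in 7 (9.86%, against 7.15%). Other spellings gave 15.5% against 3.89% for CCGGAAGT, 16.9% against 6.34% for AAGATGG and 11.3% against 2.71% for GCATGCGC. In 44 promoters of nuclear genes for respiratory complex I the first spellings gave 13.6% for ETS, 18.2% for YY1 and 9.09% for NRF1. The YY1 and NRF1 shares were thus not particular to the mitochondrial ribosomal protein genes. The strings overlap with their other spellings, were picked with these shares in view, and describe letters in a window and not bound sites.

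In every transgenic array most of the 74 genes read lower than the mean of the NTG arrays. The number below that mean was 73, 70 and 61 in the TM175 arrays and 56, 65, 60 and 56 in the TM180 arrays, each in the order of their numbers. Among the controls it was 5 in NTG array 1, 71 in NTG array 2 and 30 in NTG array 3. The median log2 difference from the NTG mean was -0.45, -0.27 and -0.20 in the TM175 arrays and -0.11, -0.20, -0.18 and -0.20 in the TM180 arrays, against 0.15, -0.17 and 0.03 in the NTG arrays. NTG array 2 therefore lay inside the range of the transgenic arrays. TM175 array 1 held the lowest of all 10 values for 37 of the genes, and NTG array 1 the highest for 49.

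**Figure D1:**
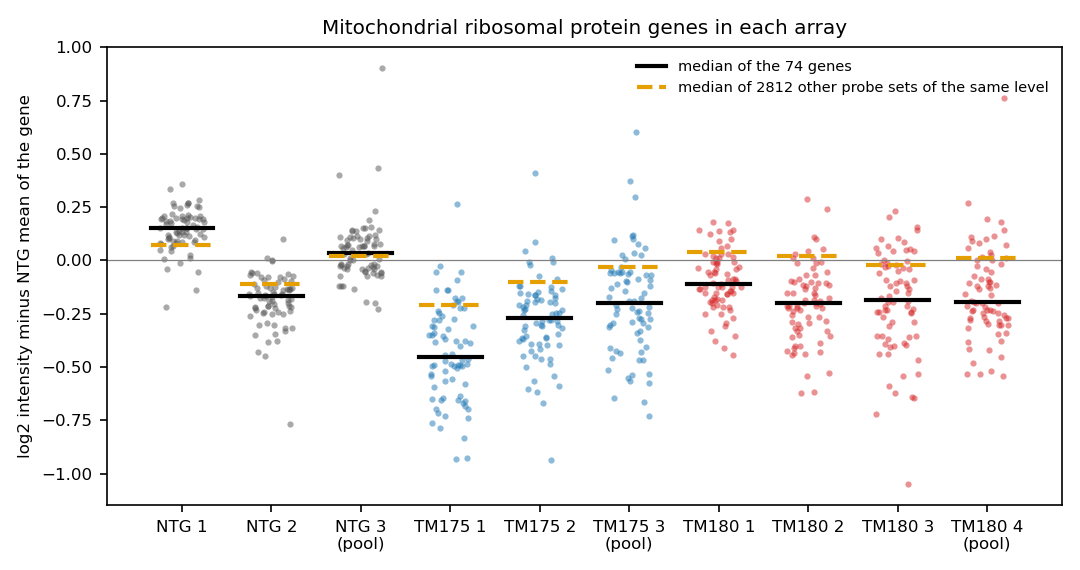
Each point is 1 of the 74 genes in 1 array, as log2 intensity minus the gene's NTG mean; black lines are the genes' medians and dashed orange lines the medians of 2812 other probe sets of the same level. The genes' median lies below the orange line in all 7 transgenic arrays and in NTG array 2, and TM175 array 1 is lowest in both.

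Other transcripts of the same brightness lay below every control in TM175 array 1 and within the controls' range in the other 6 transgenic arrays. Among the 2812 probe sets of other genes whose mean log2 intensity lay between 7.74 and 9.09, the middle range of these genes, the median log2 difference from NTG was -0.21, -0.10 and -0.03 for TM175 and 0.04, 0.02, -0.02 and 0.01 for TM180, with 0.07, -0.11 and 0.02 in the controls. Taken relative to them, the genes' median was -0.25, -0.17 and -0.17 in TM175, -0.15, -0.23, -0.17 and -0.21 in TM180, and 0.08, -0.06 and 0.01 in NTG. On this scale all 7 transgenic arrays lay below all 3 control arrays, and the lines overlapped each other. This scale was chosen after the data were seen, and the part that array brightness had in the differences below was not tested further.

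The comparison of TM175 with NTG asked what differed in the milder line. The median log2 difference of the 74 genes was -0.31, against 0.04 over all probe sets, and 72 genes lay below 0 (42.1% of all probe sets did). None passed the limma test (adjusted p of 0.168 or more, with 0.00884% of all probe sets called), and none with extract type (pool or individual heart) in the model, where the smallest adjusted p was 0.0519 and 0.862% of probe sets were called. At an unadjusted p under 0.05, 34 genes were lower and 0 higher (7.25% of all probe sets were lower), and 45 lower (10.5% of all probe sets) and 1 higher with extract type. For 27 genes every TM175 array lay below every NTG array (8.11% of probe sets).

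Several choices moved the number of calls. With arrays weighted by their spread around the genotype means, extract type not in the model, 50 genes were called lower (10.2% of all probe sets were). In that fit 1 gene, Mrpl33, was called higher. Such weights do not separate the quality of an array from its extract type. Without NTG array 2 and with extract type 20 were called, all lower (3.51% of all probe sets), among them Mrps17, Mrpl16 and Mrpl45. With median centring and extract type 4 were called lower (1.8% of all probe sets), Mrps2, Mrpl37, Mrpl19 and Mrpl42. The median was -0.25 without TM175 array 1, -0.24 without NTG array 1 and -0.41 without NTG array 2. A renewed quantile normalization brought it to -0.18, with 66 genes below 0 and 0 called.

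The smallest p-values among the large subunit genes in TM175 belonged to Mrpl37, a protein of the mitochondrial lineage. It read 287, 239 and 251 in the NTG arrays and 164, 206 and 165 in the TM175 arrays. Every TM175 array lay below every control, by a log2 difference of -0.54 ± 0.14 (SE), 1.46-fold lower (adjusted p = 0.193). Mrpl48, also of the mitochondrial lineage, read 508, 416 and 451 in NTG and 290, 358 and 330 in TM175, again without overlap (log2 difference -0.49 ± 0.13, adjusted p = 0.205). Mrpl18, which has a bacterial homologue that binds the small ribosomal RNA of the large subunit, read 224, 206 and 248 against 145, 147 and 190 (log2 difference -0.50 ± 0.14, adjusted p = 0.216).

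Mrpl19, the homologue of a bacterial protein at the interface of the subunits, read 172, 149 and 173 in NTG and 86.2, 111 and 146 in TM175. The groups were separate, with the TM175 pool just under NTG array 2 (log2 difference -0.56 ± 0.18, adjusted p = 0.258). Mrpl14, another protein of the subunit interface, had the lowest difference of all in TM175, -0.57 ± 0.22 (adjusted p = 0.331). It read 489, 335 and 476 in NTG and 224, 302 and 353 in TM175, so that the TM175 pool lay above NTG array 2. Mrpl45, which lies at the exit of the peptide tunnel and ties the ribosome to the inner membrane, differed by -0.48 ± 0.24 (adjusted p = 0.415), with overlapping groups.

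In the small subunit Mrps2, which has a bacterial homologue, had the smallest p of all 74 genes in TM175. It read 260, 201 and 246 in NTG and 148, 180 and 160 in TM175. All 3 TM175 arrays were below all controls, 1.45-fold on average (log2 difference -0.53 ± 0.13, adjusted p = 0.168, and 0.0519 with extract type). Mrps17, the homologue of a bacterial protein that binds ribosomal RNA early in assembly, read 531, 344 and 545 in NTG and 313, 305 and 376 in TM175. The TM175 pool overlapped NTG array 2 (log2 difference -0.49 ± 0.17, adjusted p = 0.279).

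The genes at the other end of the TM175 comparison stayed near the controls. Mrpl33 had the highest difference, 0.24 ± 0.12 (adjusted p = 0.402), and read 49.7, 54.7 and 49.0 in NTG against 61.3, 67.9 and 53.2 in TM175. The TM175 pool was within the controls. Mrpl52 followed at 0.07 ± 0.21 because its TM175 pool read 442, against 240 and 268 in the individual TM175 hearts and 244 to 346 in NTG. Mrps5, Mrps33, Mrpl11, Mrps15, Mrps6 and Mrpl47 had log2 differences of -0.11 to -0.01, with adjusted p-values of 0.75 or more.

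The comparison of TM180 with NTG asked the same of the more severe line, against the same 3 control arrays. The median log2 difference was -0.17 (all probe sets -0.01), and 67 of the 74 genes lay below 0 (51.5% of all probe sets). None passed (smallest adjusted p 0.215, with 0.504% of probe sets called), and none with extract type (smallest adjusted p 0.0722, with 2.01% called). At an unadjusted p under 0.05, 11 were lower and 0 higher (3.95% of probe sets were lower), and 15 lower with extract type (6.55%). For 10 genes every TM180 array lay below every control (4.19% of probe sets). Array weights called 5 genes, all lower (1.43% of all probe sets), namely Mrps31, Mrpl42, Mrpl1, Mrpl14 and Mrpl27. Mrps31 alone was called after renewed quantile normalization with extract type (-0.37 ± 0.08, adjusted p = 0.0447, with 0.804% of probe sets called lower), and Mrpl42 alone when each gene's probe sets were averaged with extract type (-0.35 ± 0.07, adjusted p = 0.0284, with 0.928% of genes called lower). The median was -0.09 without NTG array 1 and -0.25 without NTG array 2.

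Mrpl14 again lay lowest, at -0.60 ± 0.21 (1.52-fold lower, adjusted p = 0.322). It read 314, 293, 206 and 327 in TM180, all below the lowest control of 335, TM180 array 4 narrowly. Mrps31, a small subunit protein of the mitochondrial lineage, had the smallest p in TM180. It read 204, 194, 189 and 211 in TM180 and 291, 221 and 262 in NTG, so that the groups were separate with a narrow gap (log2 difference -0.36 ± 0.10, adjusted p = 0.215). Mrpl42, a protein of the mitochondrial lineage, read 2001, 1909, 2084 and 1712 in TM180 against 2559, 2296 and 2502 in NTG. Every TM180 array lay below every control, 1.27-fold on average (log2 difference -0.35 ± 0.11, adjusted p = 0.239).

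Mrps28, Mrpl1, Mrpl45, Mrpl39 and Mrpl22 made up the rest of the low end in TM180, with log2 differences of -0.39 to -0.33 and adjusted p-values of 0.341 to 0.757. Of these only Mrpl1, whose bacterial homologue forms the mobile stalk by which spent transfer RNA leaves, was separate from the controls. It read 78.9, 74.8, 64.97 and 74.1 in TM180 and 112, 80.8 and 91.4 in NTG. The dimmer probe sets of Mrpl1 stood at -0.00 and -0.20 in TM180, and at 0.12 and 0.11 in TM175. Which of the Mrpl1 sets follows the transcript was not tested. At the high end Mrpl54, Mrpl52, Mrpl12, Mrps34, Mrpl20, Mrps33 and Mrps30 had differences of 0.02 to 0.15, with adjusted p-values of 0.943 or more.

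**Figure D2:**
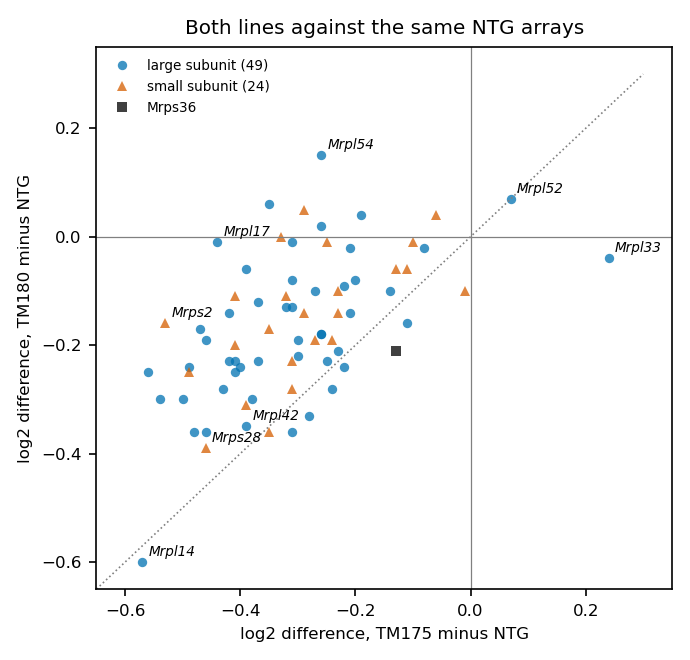
Each point is 1 gene, with its log2 difference from NTG in TM175 on the horizontal and in TM180 on the vertical axis; both axes share the same 3 NTG arrays, so the alignment of points is not a result, and the dotted line marks equal differences. Mrpl14 lies lowest in both at -0.57 and -0.60, and Mrpl33 (0.24 and -0.04) and Mrpl54 (-0.26 and 0.15) lie apart from the rest.

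In 9 genes the brightest probe set read below every control array in every array of both lines (2.21% of all probe sets did so). They were Mrpl1, Mrpl9, Mrpl18, Mrpl27, Mrpl35, Mrpl42, Mrps24, Mrps31 and Mrps35, and because the controls are shared the lines do not count as separate evidence. Mrpl27, whose bacterial homologue reaches into the peptidyl transferase centre, read 784, 638 and 785 in NTG, 560, 531 and 605 in TM175 and 623, 589, 568 and 602 in TM180. Its lowest control was NTG array 2, close above the highest transgenic array. TM175 differed from NTG by -0.38 ± 0.11 (adjusted p = 0.211), and for TM180 the value was -0.30 ± 0.10 (adjusted p = 0.3). Mrpl42 differed by -0.39 ± 0.11 in TM175 (adjusted p = 0.216), where it read 2020, 1964 and 1645.

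Mrpl9 read 243, 231 and 253 in NTG, 202, 212 and 153 in TM175 and 225, 197, 225 and 181 in TM180. In both lines the pool was the lowest array. Mrps35 read 414, 353 and 356 in NTG, 294, 291 and 320 in TM175 and 340, 297, 322 and 318 in TM180, with log2 differences of -0.31 ± 0.10 (adjusted p = 0.249) and -0.23 ± 0.09 (adjusted p = 0.450). Mrps24 read 937, 770 and 828 against 578, 711 and 650 in TM175 and 761, 643, 758 and 578 in TM180. Mrpl35 was the closest to overlap, with 570 in NTG array 2 against highest values of 568 in TM175 and 569 in TM180.

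**Figure D3:**
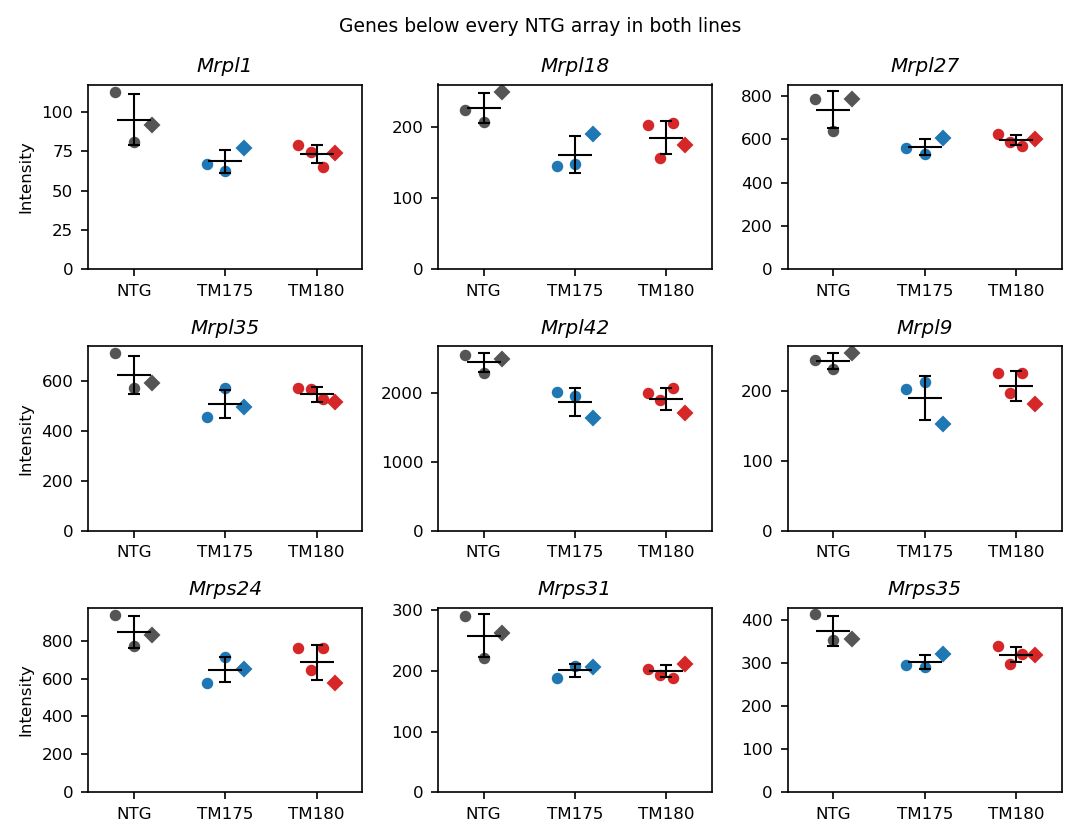
Intensity of the 9 genes in every array, by genotype on the horizontal axis; circles are individual hearts, diamonds pools of 20 hearts, and black bars the mean ± SD of the 3 NTG, 3 TM175 and 4 TM180 arrays. All transgenic arrays lie below all control arrays in each panel, most narrowly in Mrpl35 (570 in the lowest control, 569 in the highest transgenic array).

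Members whose defects cause cardiomyopathy in people differed less than the family's median in both lines, except Mrps22 in TM180. Mrpl3 and Mrpl44, of the large subunit, and Mrps14 and Mrps22, of the small subunit, had log2 differences of -0.21, -0.14, -0.13 and -0.24 in TM175 and of -0.14, -0.10, -0.06 and -0.19 in TM180, with adjusted p-values of 0.36 or more. Mrps22 read 270, 210 and 234 in NTG and 207, 198 and 197 in TM175. The TM175 arrays lay below the controls, with NTG array 2 close by. Mrps16, in which a defect causes a fatal respiratory chain disorder, differed by -0.27 ± 0.16 in TM175 and -0.19 ± 0.15 in TM180 (adjusted p of 0.488 and 0.858).

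Over the 29 genes that ranked among neither the highest nor the lowest in any comparison and are not singled out for a known role, Mrpl27 and Mrps35 among them, the log2 difference ran from -0.46 to -0.20 in TM175 and from -0.31 to -0.01 in TM180. None of the 29 passed (smallest adjusted p 0.211 and 0.3). Groups within the ribosome were described by their medians. In TM175 the median was -0.31 for the 49 large subunit genes and -0.30 for the 24 of the small subunit, and in TM180 -0.18 and -0.14. Genes with a bacterial homologue (46) stood at -0.31 and -0.16, and the 27 ribosomal proteins of the mitochondrial lineage, Mrps36 left out, at -0.31 and -0.18. The 3 paralogues of a single bacterial protein gave close values in TM175, -0.31 ± 0.12 for Mrps18a, -0.33 ± 0.16 for Mrps18b and -0.32 ± 0.13 for Mrps18c. In TM180 they stood at -0.08, -0.00 and -0.11, and none passed in either line. Mrps12, of the decoding centre, was at -0.29 ± 0.11 and -0.14 ± 0.11. Mrps36, which is not a ribosomal protein, stood at -0.13 and -0.21.

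Between the lines the genes read higher in TM180 than in TM175 as a whole, by a median of 0.13 (all probe sets -0.03), with 64 of 74 above 0 (44.6% of all probe sets). None passed (0% of probe sets called, smallest adjusted p among the genes 0.306), nor with extract type (0.0265% called, smallest 0.081). At an unadjusted p under 0.05, 7 were higher and 1 lower (6.89% of probe sets were higher), and 15 higher (11% of probe sets) and 1 lower with extract type. In 9 genes every TM180 array lay above every TM175 array (6.22% of probe sets). Array weights called Mrps34, Mrps18c, Mrpl24 and Mrpl17 higher and Mrpl33 lower, 5 of 74 where 10.3% of all probe sets were called. Without NTG array 1 and with extract type Mrpl17 and Mrpl12 were called higher (1.79% of probe sets). The median was 0.03 after renewed quantile normalization, with 42 genes above 0, and -0.01 relative to probe sets of the same level, so that the direction between the lines rested on the scale.

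Mrps2 had the smallest p between the lines, with 206, 202, 198 and 236 in TM180 against 148, 180 and 160 in TM175 (log2 difference 0.37 ± 0.12, adjusted p = 0.306). Its groups did not overlap. Mrpl17 read 254, 275, 253 and 289 in TM180 and 172, 192 and 236 in TM175 (0.43 ± 0.14, adjusted p = 0.309). The TM180 values lay within those of NTG, which read 310, 218 and 289. A dimmer probe set of Mrpl17 had the opposite sign between the lines (-0.17, adjusted p = 0.588 by limma). Mrpl12, the stalk protein that calls translation factors to the ribosome, read 763, 729, 727 and 605 in TM180 and 530, 604 and 468 in TM175 (0.41 ± 0.15, adjusted p = 0.332). The TM180 pool cleared the highest TM175 array by about 1 unit, and NTG spanned 588 to 852.

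Mrpl54 was the only named gene to lie above the NTG mean in every TM180 array and below it in every TM175 array. It read 196, 121 and 150 in NTG, 108, 145 and 131 in TM175 and 173, 186, 158 and 162 in TM180 (TM180 minus TM175 0.41 ± 0.16, adjusted p = 0.344). The controls spanned both lines. Mrpl33 ran the other way, with 44.0, 52.6, 52.6 and 49.7 in TM180 against 61.3, 67.9 and 53.2 in TM175 (-0.29 ± 0.11, adjusted p = 0.344). The second probe set of Mrpl33, of nearly the same level, had the opposite sign between the lines (0.29, adjusted p = 0.401 by limma).

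**Figure D4:**
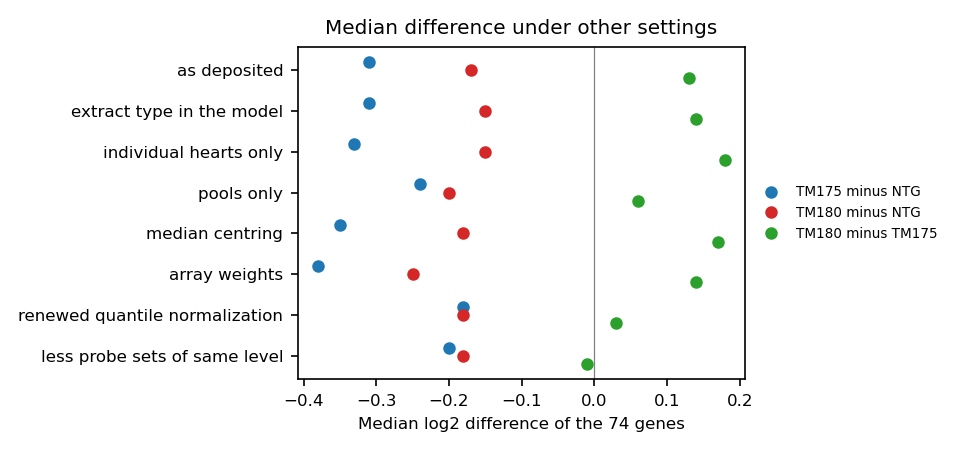
Median log2 difference of the 74 genes in the 3 comparisons under 8 settings listed on the vertical axis. Both lines lie below 0 in every setting shown, from -0.38 to -0.18 in TM175 and -0.25 to -0.15 in TM180, while the difference between the lines runs from 0.18 to -0.01.

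Pools of 20 hearts differed from individual hearts in 6 of the genes, with genotype in the model (22.2% of all probe sets were called in this comparison). Mrpl16, whose bacterial homologue lies near the bound transfer RNA, was the clearest. The pools read 801 in NTG, 555 in TM175 and 725 in TM180, against 224 to 389 in the individual hearts. Mrpl16 was 2.43-fold higher in pools (95% interval 2.03 to 2.91, adjusted p = 1.55e-05), and the extract types did not overlap. Mrpl45 rose 1.48-fold (log2 difference 0.57 ± 0.10, adjusted p = 0.00307), Mrps34 by 0.45 ± 0.15 (adjusted p = 0.0447) and Mrpl19 by 0.37 ± 0.11 (adjusted p = 0.0288) on the log2 scale.

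In the other direction Mrps7, a protein of the head of the small subunit, read 184 to 211 in the pools and 211 to 300 in individual hearts. It fell by 0.32 on the log2 scale (SE 0.09, adjusted p = 0.0255). Mrps18b fell by 0.31 (SE 0.10, adjusted p = 0.0413). The median over the 74 genes was 0.07, and -0.02 after renewed quantile normalization. The number called was 2 without the TM175 pool (9.47% of all probe sets) or the TM180 pool (9.06%), 3 without TM175 array 2 (18.2%) or NTG array 3 (12%), and 16 without NTG array 1 (30%). Xist was higher in the pools of TM175 and TM180 than in most individual hearts, as given above, and its part was not tested.

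Taking all probe sets of these genes gave a weaker shift. Of the 127 probe sets 53 were not the brightest of their gene, and 35 of them lay below 0 in TM175 (median -0.07) and 44 in TM180 (median -0.08). In TM175 21 of the 53 had the opposite sign to their gene's brightest set, in 15 genes, and in TM180 8 did. Between the lines 28 of the 53 did, in 21 genes. Mrpl33 was such a case, with 59.6, 46.6 and 53.0 in NTG and 35.6, 38.5 and 51.9 in TM175 in its second set (log2 difference -0.35, adjusted p = 0.376). Which of its sets follows the transcript was not tested.

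With extract type in the model 2 of the 127 probe sets were called in TM175, where 0.862% of all probe sets were called. Both were lesser sets of Mrpl15. They fell by 0.71 (SE 0.12, adjusted p = 0.0352) and 0.52 (SE 0.09, adjusted p = 0.0377). The first read 499.5, 441 and 557 in NTG and 267, 356 and 294 in TM175, and 397, 362, 337 and 374 in TM180. Every transgenic array lay below every control array. The brightest set of Mrpl15 differed by -0.30 ± 0.10 (adjusted p = 0.259), and of its 7 sets a dimmer one stood at 0.22. Some of these sets are of the kind that can detect related transcripts.

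Other parts of mitochondrial gene expression showed medians of the same sign in both lines. Of 4 measured subunits without the prefix, among them Dap3 and Ptcd3, the median was -0.40 in TM175 and -0.20 in TM180, and 4 were lower at an unadjusted p under 0.05 in TM175. Ptcd3 read 494, 333 and 528 in NTG and 260, 333 and 379 in TM175 (log2 difference -0.47 ± 0.19, adjusted p = 0.339), with overlap at NTG array 2. The 7 translation factors stood at -0.29 and -0.27. Gfm1, the elongation factor that moves the ribosome along, read 762, 538 and 667 in NTG, 441, 515 and 465 in TM175 and 487, 451, 518 and 442 in TM180. All transgenic arrays were below all controls, by -0.46 ± 0.13 (adjusted p = 0.216) and -0.46 ± 0.12 (adjusted p = 0.181).

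The 21 assembly factors had medians of -0.15 and -0.12. Fastkd2, which acts on the ribosomal RNA, differed by -0.44 ± 0.14 in TM175 (adjusted p = 0.249). The 13 transfer RNA synthetases stood at -0.25 and -0.07. Fars2, the phenylalanine enzyme, fell by 0.62 in TM175 once extract type was fitted (adjusted p = 0.0308), though not without it (adjusted p = 0.201), and read 518, 453 and 427 in NTG and 330, 356 and 237 in TM175. The 11 genes of mitochondrial DNA expression stood at -0.24 and -0.09. Tfam, the factor that packs and transcribes that DNA, read 155, 130 and 145 in NTG and 101, 96.7 and 113 in TM175 (-0.47 ± 0.11, adjusted p = 0.167). In TM180 it read 130, 116, 135 and 132, overlapping the controls. Except for Fars2, 0 genes of these 5 lists passed limma's test in either model and line. Without extract type 19 were lower in TM175 at an unadjusted p under 0.05 (7.25% of all probe sets were). In TM180 5 were lower (3.95% of all probe sets).

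The 11 measured nuclear regulators of mitochondrial genes lay on both sides of the controls, with medians of 0.07 in TM175 and -0.00 in TM180. In either model 0 of them passed limma's test. Nrf1, whose binding string is shown in the Mrpl9 promoter, differed by 0.29 ± 0.12 in TM175 (adjusted p = 0.358). Ppargc1a, the coactivator of mitochondrial biogenesis, read 238, 175 and 320 in NTG and 152, 86.2, 126 and 205 in TM180 (-0.80 ± 0.28, adjusted p = 0.349), with overlap at NTG array 2. Genes of the mitochondrial genome, including the 2 ribosomal RNAs, were not analysed here.

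Complex I, of which this ribosome makes some of the core subunits and whose remaining subunits are encoded in the nucleus, was set beside the family. Its 39 nuclear genes had medians of -0.22 and -0.19, with 38 and 39 below 0. Ndufs4 fell by 0.54 in TM175 (adjusted p = 0.0417) and, for TM180, by 0.44 (adjusted p = 0.0350), and Ndufab1 by 0.56 in TM175 (adjusted p = 0.0338), on the log2 scale with extract type. None passed without it (smallest adjusted p 0.131 and 0.105). The 48 cytosolic ribosomal protein genes had medians of -0.07 and 0.03, and 1, the muscle form Rpl3l, was called lower in TM180 with extract type (-0.70, adjusted p = 0.0149). The difference between these lists was not tested.

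**Figure D5:**
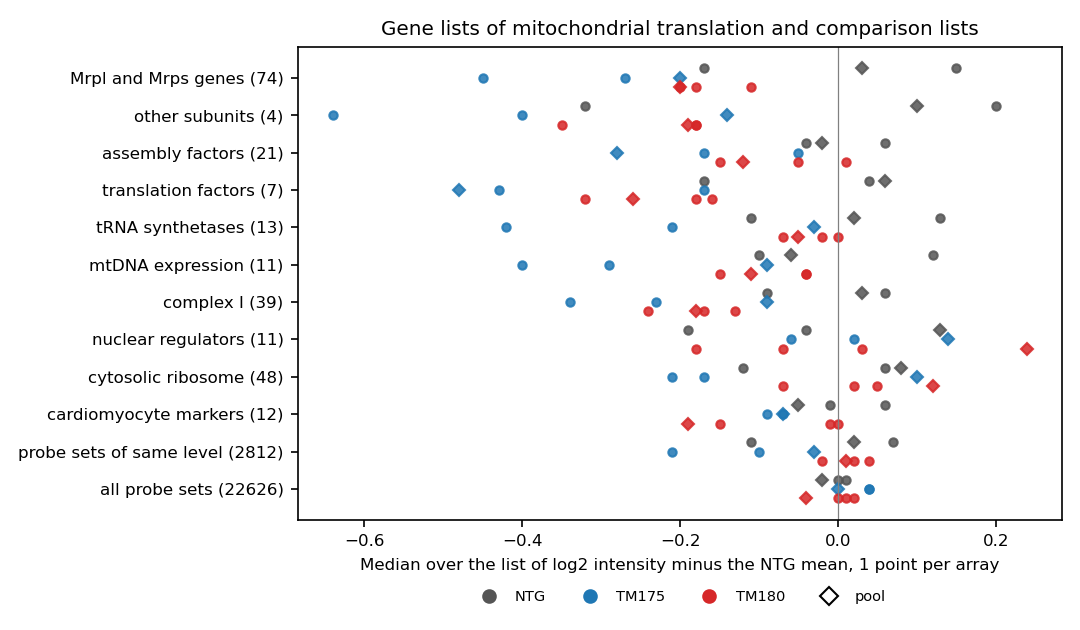
Median over each gene list of log2 intensity minus the NTG mean, 1 point per array, with list sizes in brackets; circles are individual hearts and diamonds pools. The 74 genes lie between -0.45 and -0.11 in transgenic arrays and at -0.17 to 0.15 in controls, while cardiomyocyte markers lie between -0.19 and 0.06 in all arrays.

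Among cell type markers, 1 of 8 fibroblast genes was called higher in TM175 and 3 in TM180, without extract type. The 12 cardiomyocyte markers had medians of -0.06 in TM175 and -0.09 in TM180, and their summed intensity over the 9 with a settled scale was 56561 to 60870 in NTG, 54678 to 56000 in TM175 and 52643 to 57723 in TM180. Of 8 fibroblast markers, all measured and none at 0, the median was 0.57 and 0.93, and their summed intensity was 4602 to 6906 in NTG, 6639 to 10284 in TM175 and 8410 to 12868 in TM180. Postn, made by activated fibroblasts, rose on the log2 scale, by 1.65 in TM175 (adjusted p = 0.0368) and, for TM180, by 2.33 (adjusted p = 0.00125). The lists for endothelial, smooth muscle, macrophage, lymphocyte, red blood cell, atrial, skeletal muscle and adipocyte markers had medians of -0.12 to 0.26 in TM175 and 0.01 to 0.63 in TM180, and 1 of their genes passed, Nppa of the atrial list, which hypertrophied ventricles are known to express and which rose by 3.43 on the log2 scale in TM180 (adjusted p = 0.0483). The part of these cell types in the lower readings of the mitochondrial ribosomal protein genes was not tested.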

How the data were processed

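RNA from ventricles was hybridised to 10 Affymetrix mouse arrays. The deposited intensity values were made by the authors with RMA, per the submitters' processing notes, whose version is not stated; the genome build is not given in the sources used here. From 1000 upward the file puts a point after the leading digits (1.181 for 1181), and 7764 of 226900 values in 1049 probe sets were restored. Decimals, a last digit of 0 and the size of a value settled some readings, and the other arrays settled the rest. The rule was refined after looking at the values. Its own readings, written in the same form and read again, gave 0 misread of 223930. That check used no independently known values, so it cannot show that the first reading was right. Unsettled and kept as written were 233 probe sets, among them no brightest probe set of these genes.

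Log2 intensities were fitted with limma 3.58.1 in R 4.3.3 over all 22626 probe sets, 64 control probe sets left out, with 1 mean per genotype, and again with extract type. P-values were adjusted by the Benjamini-Hochberg method and called under 0.05, with no filter on low values. Symbols came from the platform's annotation, 20380 probe sets having 1 symbol, 691 several and 1555 none. Of these genes' probe sets 127 had 1 symbol and 3 were shared with another symbol and not used. Genes were named in the text by a rule. In each comparison it took the 8 highest and 8 lowest differences and a short list of known genes. It also took genes called in the fits described above, without or with extract type. From other lists it took the called genes and up to 3 with the smallest p. Other genes named are Mrpl15, the 9 below every control and some of those called only under other settings, chosen after their values were seen. The members, lists and letter strings were chosen with earlier results of these data known. Alternatives left out single arrays, used individual hearts or pools alone, changed normalization, filter, variance model, array weights or the summary per gene, and took the replicate number as a block. The fits were tested on simulated data.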

Additional observations from a re-analysis of the deposited data

Results flagged for a closer look

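Mrps6 in TM180 was picked out because 1 array stood away from the rest of its group. It read 233, 233 and 240 in the individual hearts and 198 in the pool, and the gap made up 0.833 of the group's range. About 1 in 20 groups is picked out in this way when no array stands apart.

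Mrpl54 was picked out because all 3 TM175 arrays lay below the NTG mean and all 4 TM180 arrays above it. The log2 difference between the lines was 0.41 ± 0.16, and limma's test of it did not pass (adjusted p = 0.344, and 0.135 with extract type). With array weights its TM180 difference from NTG was -0.04 in place of 0.15.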

How the results depend on the processing

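In TM175 and TM180 against NTG the median difference of the 74 genes stayed below 0 in every setting run, moving to -0.18 in TM175 with renewed quantile normalization in either model. Between the lines it was 0.01 with renewed quantile normalization and extract type, and -0.01 relative to probe sets of the same level. The number of genes called in TM175 was 0 to 20 when single arrays were left out, 4 with median centring and extract type, 1 with the mean of a gene's probe sets and extract type, and 51 with array weights. In TM180 it was 1 with renewed quantile normalization and extract type, 1 with the mean of a gene's probe sets and extract type, and 5 with array weights. Between the lines it was 0 to 2 without single arrays and 5 with array weights. For pools it was 2 (9.47% and 9.06% of all probe sets) to 16 (30%) without single arrays, and 10 with renewed quantile normalization. The share of all probe sets called was not counted for those 10, nor for the 1 gene in TM175 with the mean of a gene's probe sets. The cause of the moves in these numbers was not tested. After removal of group means, same-numbered arrays correlated from -0.534 to 0.707, but both ends involve pools. Between individual hearts the correlation was -0.113 to 0.485 for the same number and 0.02 to 0.663 for different numbers. These values do not settle whether the numbers pair the samples. With the replicate block 0 genes were called and the medians were -0.31, -0.17 and 0.14. In simulated data of the same size, TM175 calls without extract type recovered 2% of log2 changes of 0.3, 16% of 0.5 and 78% of 1, which limits what differences near 0.3 can show. Fits without single arrays and with extract type, normalization with extract type, pools alone and the level scale were chosen after seeing the data. Of all 74 genes the sign changed with extract type in 0 in TM175, 3 in TM180 and 0 between the lines, with individual hearts only in 2, 5 and 5, and with renewed quantile normalization in 6, 0 and 22. The log2 differences that changed sign are given next for the genes named by the rule in each comparison, and not for the others. With extract type in the model the named genes were Mrps30 -0.00 in TM180 against NTG. With individual hearts only the named genes were Mrpl52 -0.20 in TM175 against NTG, Mrpl20 -0.01 and Mrps30 -0.00 in TM180 against NTG, Mrpl14 0.04, Mrpl22 0.00, Mrpl39 0.11, Mrpl55 0.01 and Mrps5 0.03 in TM180 against TM175. With the replicate block the named genes were Mrpl20 -0.00, Mrps18b 0.09 and Mrps34 -0.03 in TM180 against NTG. With renewed quantile normalization the named genes were Mrpl11 0.07, Mrpl44 0.01, Mrps14 0.02, Mrps33 0.04 and Mrps5 0.03 in TM175 against NTG, Mrpl3 -0.11, Mrpl44 -0.13, Mrps14 -0.10, Mrps16 -0.09 and Mrps22 -0.04 in TM180 against TM175, Mrpl3 -0.11, Mrpl44 -0.12, Mrps14 -0.12 and Mrps18a -0.08 in pools against individual hearts. With the mean of a gene's probe sets the named genes were Mrpl33 -0.05, Mrpl52 -0.05, Mrps14 0.07 and Mrps5 0.02 in TM175 against NTG, Mrps14 0.02 in TM180 against NTG, Mrpl3 -0.07, Mrpl33 0.00 and Mrps14 -0.05 in TM180 against TM175, Mrpl3 -0.06, Mrps14 -0.11 and Mrps23 0.01 in pools against individual hearts. With renewed quantile normalization with extract type the named genes were Mrpl11 0.07, Mrpl44 0.01, Mrps14 0.02, Mrps33 0.04 and Mrps5 0.03 in TM175 against NTG, Mrps30 -0.02 in TM180 against NTG, Mrpl3 -0.12, Mrpl44 -0.14, Mrps14 -0.11, Mrps16 -0.07 and Mrps22 -0.05 in TM180 against TM175. With median centring with extract type the named genes were Mrps30 -0.01 in TM180 against NTG, Mrpl14 0.03, Mrpl22 0.00, Mrpl39 0.01 and Mrpl55 0.00 in TM180 against TM175. With the mean of a gene's probe sets with extract type the named genes were Mrpl33 -0.05, Mrpl52 -0.05, Mrps14 0.07 and Mrps5 0.02 in TM175 against NTG, Mrps14 0.01 and Mrps30 -0.00 in TM180 against NTG, Mrpl3 -0.08, Mrpl33 0.00 and Mrps14 -0.06 in TM180 against TM175. With array weights the named genes were Mrpl52 -0.25 and Mrps5 0.02 in TM175 against NTG, Mrpl12 -0.09, Mrpl20 -0.09, Mrpl52 -0.12, Mrpl54 -0.04, Mrps30 -0.06, Mrps33 -0.05 and Mrps34 -0.09 in TM180 against NTG, Mrpl22 0.00 and Mrpl39 0.14 in TM180 against TM175. Leaving out single arrays, in either model, also turned some signs of named genes. In TM175 against NTG the ranges were Mrps5 -0.12 to 0.12, Mrpl52 -0.20 to 0.26, Mrps6 -0.27 to 0.03 and Mrpl47 -0.21 to 0.00. In TM180 against NTG the ranges were Mrps30 -0.09 to 0.08, Mrps18b -0.12 to 0.12, Mrps33 -0.04 to 0.10, Mrpl20 -0.04 to 0.17, Mrps34 -0.13 to 0.29, Mrps18a -0.16 to 0.00, Mrps18c -0.23 to 0.03, Mrpl12 -0.10 to 0.22, Mrpl52 -0.06 to 0.30 and Mrpl54 -0.04 to 0.35. In TM180 against TM175 the ranges were Mrps16 -0.03 to 0.22, Mrpl44 -0.03 to 0.09, Mrpl55 -0.17 to 0.06, Mrpl14 -0.22 to 0.11, Mrpl22 -0.16 to 0.06, Mrpl39 -0.17 to 0.15, Mrpl47 -0.14 to 0.05, Mrps5 -0.23 to 0.01 and Mrpl3 -0.00 to 0.12. In pools against individual hearts the ranges were Mrpl3 -0.03 to 0.06, Mrps18a -0.00 to 0.08, Mrpl44 -0.05 to 0.04, Mrps14 -0.03 to 0.06 and Mrps22 -0.07 to 0.02.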
